A study of Rattus norvegicus with 12 samples.

Results

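The comparison described here sets livers of rats that received S-allylmercaptocysteine on a high fat diet (HFD+SAMC, 3 libraries) against livers of rats on a normal diet alone (Control, 3 libraries). The members are thus 6 of the 12 RNA-seq libraries of the series, taken by their treatment labels. All are liver samples of Sprague Dawley rats, an outbred laboratory stock. The compound, SAMC for short, is a sulfur-containing amino acid derivative present in aged garlic. Diet and SAMC differ together between these groups, so their parts in a difference cannot be told apart from the 6 libraries alone. The question is how far the treated liver on the fatty diet lay from the normal liver. The other groups, a high fat diet without SAMC (HFD) and a normal diet with SAMC (Control+SAMC), also had 3 libraries each and are used for their values beside the main ones. Dose, duration, sex and age are not in the labels, nor is it said there that each sample is a separate animal, so p-values measure only how these samples vary, and that variation may be technical.

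The liver adjusts its detoxifying enzymes through receptors that sense foreign compounds. The nuclear receptors CAR and PXR switch on cytochromes of the Cyp2b and Cyp3a families, the aryl hydrocarbon receptor AhR switches on the Cyp1a family, and Nrf2, which Keap1 holds back until electrophiles or oxidants modify it, switches on glutathione S-transferases and aldo-keto reductases. Fat in the diet acts on other regulators: fatty acids activate PPARa, which drives fatty acid oxidation, while SREBP and its partners set the synthesis of fatty acids and cholesterol. Inflammation through NF-kB and inflammasomes accompanies the progress of fatty liver disease. The title of the series names AhR, Nrf2, NF-kB with its inhibitor IκBα, and the NLRP3 and NLRP6 inflammasomes.

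Total counts of the 6 libraries ranged from 49466427 in Control replicate 3 to 61937544 in HFD+SAMC replicate 3. In bulk liver RNA, fewer cells of a type and less RNA per cell cannot be told apart. Hepatocyte markers were abundant in every library, and albumin (Alb) alone took 7.32% to 21.8% of counts. Control replicate 2 stood apart: it had the 21.8% of Alb, 3590 CPM (counts scaled to a library of 1e+06) of the fibrinogen chain Fga against 12900 and 18500 CPM in the other Control libraries, and the highest sterol and fatty acid synthesis transcripts of the 6. HFD+SAMC replicate 3 also stood apart, in which the skeletal muscle actin Acta1 reached 439 CPM while none of the other 5 libraries exceeded 0.135 CPM. Summed over a skeletal muscle marker list, that library had 1410 CPM, the other HFD+SAMC libraries 9.53 and 11.3 CPM, and the Control libraries 8.09 to 14.4 CPM.

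By the distance between profiles of the most variable genes, the groups lay little farther apart than libraries of a group lay from each other. Over the 500 most variable genes, the root mean square difference in log2 CPM between an HFD+SAMC and a Control library averaged 2.64 (2.14 to 3.37 over the 9 pairs). Within groups it averaged 2.31, namely 2.39 among Control and 2.24 among HFD+SAMC libraries. The between-group excess of 0.33 had an exact permutation p of 0.1 (two-sided over the 6 libraries), which is the smallest that 3 libraries against 3 allow. The same mean was 2.49 between HFD and Control, 2.5 between Control+SAMC and Control, and 2.5 between HFD+SAMC and HFD, each of which shares a group with the main comparison. HFD+SAMC replicate 3 lay at 2.67, 3.37 and 2.98 from Control replicates 1, 2 and 3. The excess was 0.212 without that library and 0.535 without Control replicate 1. Over all genes tested, the mean distance was 0.851 between HFD+SAMC and Control libraries and 0.76 within these groups.

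Gene by gene, few transcripts passed the test. Of 15916 genes, 28 (0.176%) had an adjusted p under 0.05 (edgeR quasi-likelihood test, Benjamini-Hochberg): 16 were higher (0.101% of genes) and 12 lower (0.0754%) in HFD+SAMC. In all 28 the 3 HFD+SAMC libraries lay wholly above or below the 3 Control libraries, and 25 were estimated to differ by more than 2-fold. Such separation was common over the whole table, with 10.2% of genes wholly above and 9.49% wholly below. At an unadjusted p under 0.05, 6.61% of genes were higher and 5.99% lower. Counts of list members at that p are to be read beside these shares. For 59% of genes the 95% interval of the log2 fold change lay within 2-fold in either direction. For 0.559% of genes that interval lay wholly beyond 2-fold higher and for 0.201% wholly beyond 2-fold lower. These intervals are not adjusted for the number of genes. Genes within 2-fold can still differ, as the called Arhgef7 does (0.428 to 0.898). Uncalled genes outside these groups are neither shown to differ nor shown to be alike.

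The count of 28 depended on single libraries. It was 53 without Control replicate 1, 7 without Control replicate 3, 13 without HFD+SAMC replicate 2 and also 13 when replicate 3 of that group was left out. The higher genes numbered 5 without Control replicate 3, 9 without HFD+SAMC replicate 2 and 25 without Control+SAMC replicate 3. The lower genes numbered 2 without Control replicate 3, 4 without HFD+SAMC replicate 1 or 2, 2 without HFD+SAMC replicate 3, 30 without Control replicate 1 and 19 without HFD replicate 4. With Control replicate 2 and HFD+SAMC replicate 3 both left out, a setting added after seeing the data that leaves 2 libraries a group, edgeR called 0 genes and 1705 had an unadjusted p under 0.05. All 28 genes kept their direction in every one of these fits. Of them, 7 (Cyp2b1, Cyp2b2, Akr7a3, Gstp1, Cidea, Apoa4 and Ddhd1) kept their call when any of the 12 libraries was left out. With counts scaled by library totals alone the median over all genes moved from -0.002 to 0.268 on the log2 scale, and the split of calls changed from 57.1% higher to 92.2% higher of 180 genes.

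**Figure D1:**
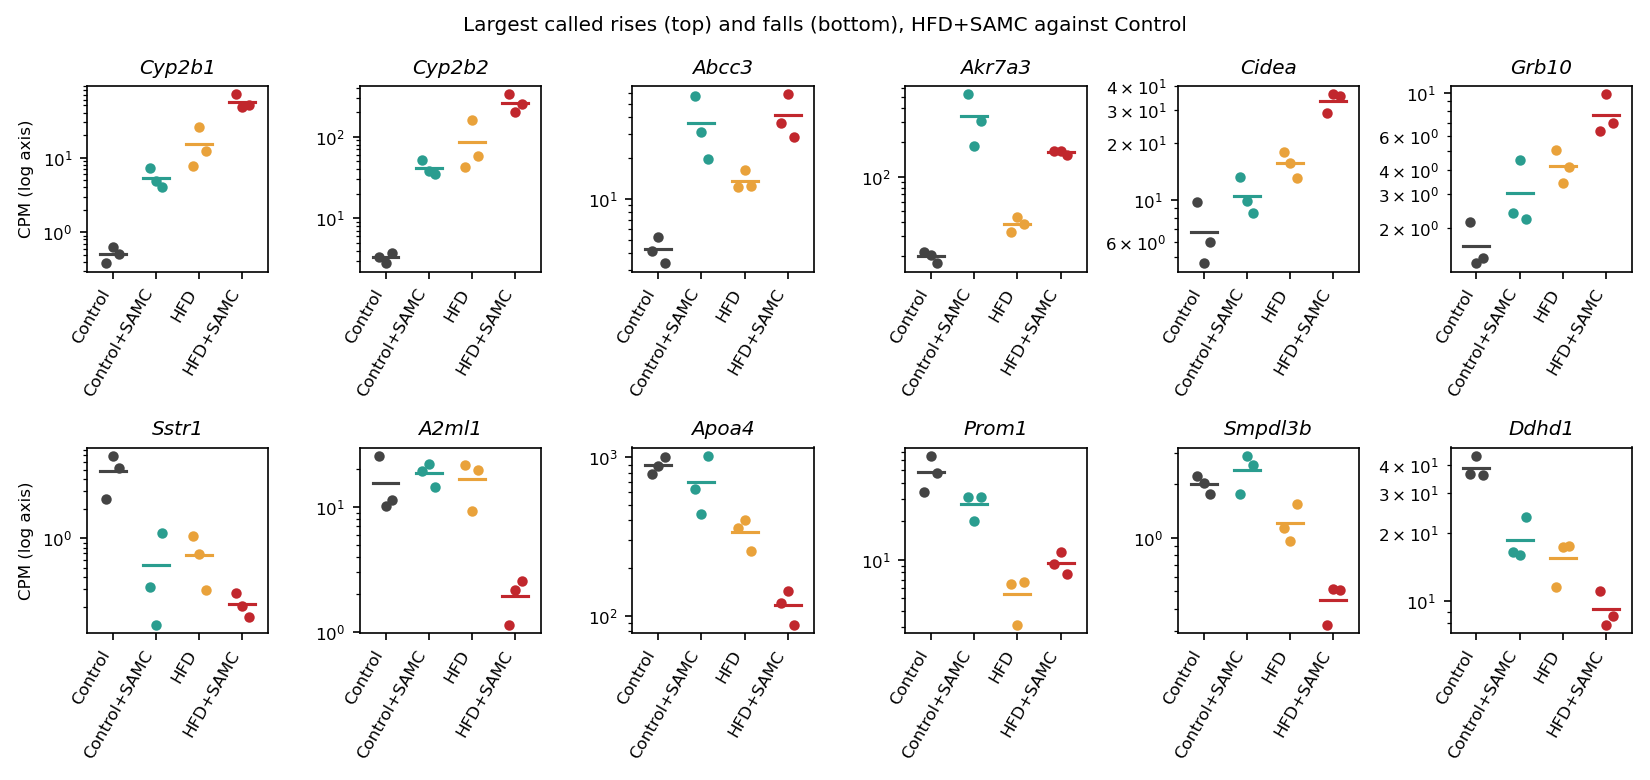
CPM in each library (log axis) of the 6 largest rises (top row) and 6 largest falls (bottom row) past the threshold, by group; points are libraries and bars are means of 3. The HFD+SAMC points lie wholly above the Control points in the top row (Cyp2b1 at 47.1 to 70.3 against 0.381 to 0.636 CPM) and wholly below them in the bottom row.

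The largest rises were in Cyp2b1 and Cyp2b2, cytochromes that oxidise drugs and are the classic rat targets of CAR. Their promoters are shown because both genes rose. The 250 bases before each start site are from RefSeq on GRCr8, printed on the gene's strand, chr1:90645869-90646118 (+) for Cyp2b1 and chr1:90722031-90722280 (+) for Cyp2b2:
Cyp2b1: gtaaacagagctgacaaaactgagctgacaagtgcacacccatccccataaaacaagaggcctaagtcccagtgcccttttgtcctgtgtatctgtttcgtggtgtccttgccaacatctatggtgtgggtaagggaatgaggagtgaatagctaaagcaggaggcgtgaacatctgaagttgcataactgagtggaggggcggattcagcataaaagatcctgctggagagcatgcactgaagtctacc
Cyp2b2: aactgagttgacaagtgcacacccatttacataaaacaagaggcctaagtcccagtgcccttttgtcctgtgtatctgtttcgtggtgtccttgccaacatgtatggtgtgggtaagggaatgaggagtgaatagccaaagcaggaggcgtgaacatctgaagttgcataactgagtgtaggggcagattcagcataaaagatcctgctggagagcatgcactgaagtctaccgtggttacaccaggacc
Aligned end to end, 225 of 267 columns were identical (84.3%). The transcripts of the pair are known as close copies, whose likeness was not measured here. Counting per gene can divide or drop reads that match either copy, so the separate values are uncertain. The deposited table lists Cyp2b1 on chromosome 7 (99142431 to 99183540) and Cyp2b2 on chromosome 1 (83103925 to 83119578), with no build named.

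Cyp2b1 was at 0.381, 0.636 and 0.516 CPM in Control replicates 1, 2 and 3 and at 70.3, 47.1 and 50.7 CPM in HFD+SAMC replicates 1, 2 and 3. It rose by 6.79 ± 0.51 on the log2 scale (SE; 95% interval 5.66 to 7.91; 110-fold; adjusted p = 0.000705). The gene was nearly silent in every Control library and active in every HFD+SAMC library. Cyp2b2 was at 3.39, 2.79 and 3.74 CPM in Control and at 330, 203 and 251 CPM in HFD+SAMC, a rise of 6.30 ± 0.53 (78.9-fold; adjusted p = 0.0012). Per length, mean levels in HFD+SAMC were 20.9 RPKM for Cyp2b1 and 148 RPKM for Cyp2b2. The diet without SAMC and SAMC without the diet gave values in between: HFD replicates 2, 3 and 4 had 7.66, 25.8 and 12.3 CPM of Cyp2b1, and the Control+SAMC libraries 7.2, 4.92 and 4.07 CPM. Against HFD, HFD+SAMC was higher by 1.87 for Cyp2b1 (adjusted p = 0.179) and 1.59 for Cyp2b2 (adjusted p = 0.262), neither past the threshold. Cyp2b3, another member of the family, was lower in every HFD+SAMC library (140 to 180 CPM against 324 to 431 CPM; log2 difference -1.20 ± 0.23, adjusted p = 0.0663).

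Beside this pair, the CAR and PXR list held a further call. Of 19 tested members, 3 rose (Cyp2b1, Cyp2b2 and Aldh1a1) and none fell, 10 were higher at unadjusted p under 0.05 against 6.61% of all genes, and the median log2 difference was 0.76. Aldh1a1, which oxidises retinal and other aldehydes, rose from 54.1 to 72.9 CPM in Control to 179 to 247 CPM (1.65 ± 0.26, adjusted p = 0.0252), and its adjusted p reached 0.151 without Control replicate 3. Cyp3a62, a PXR-type cytochrome, was at 0.44 to 0.897 CPM in Control and 1.87 to 8.65 CPM in HFD+SAMC (2.85 ± 0.55, adjusted p = 0.067). The mean level of the list in each library, relative to the Control mean, was -0.09 to 0.14 in Control, 1.15 to 1.41 in HFD+SAMC, 0.99 to 1.32 in HFD and 0.48 to 0.85 in Control+SAMC. Among 32 cytochromes of drug metabolism 2 rose and none fell, 11 were higher and 3 lower at unadjusted p under 0.05, and the median was 0.32. The list median for CAR and PXR was 0.55 without Control replicate 3 and 1.18 without Control replicate 2.

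Several enzymes under Nrf2 control also rose. The promoter of Gstp1, the pi-class glutathione S-transferase, is shown because it holds the core of the antioxidant response element, the site that Nrf2 binds. It is from RefSeq on GRCr8 (chr1:210769706-210769955, minus strand), with the match to TGACNNNGC in capitals:
Gstp1: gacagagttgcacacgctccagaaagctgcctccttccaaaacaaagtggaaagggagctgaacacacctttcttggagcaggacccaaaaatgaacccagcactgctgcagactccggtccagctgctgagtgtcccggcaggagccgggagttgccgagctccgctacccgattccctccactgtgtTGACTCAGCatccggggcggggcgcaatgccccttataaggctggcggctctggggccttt
The match begins 61 bases before the start site. Searched on either strand, the motif was in 3373 of 33469 promoters of this length (10.1%), and in 2 of the 25 called genes with a promoter in the table, Gstp1 and A2ml1. The promoter of Akr7a3, which also rose, held no match. A match is a description of these letters and not a bound site.

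Gstp1 was at 14.4, 13.7 and 12.1 CPM in Control and at 36.2, 27.8 and 28.5 CPM in HFD+SAMC, a rise of 1.20 ± 0.13 (2.3-fold; adjusted p = 0.00207). HFD libraries, at 11.8, 13 and 11.1 CPM, were near Control, and Control+SAMC libraries, at 56.8, 52 and 53.7 CPM, were the highest. Gstp1 thus separated libraries with SAMC from those without it on either diet. Akr7a3, an aldo-keto reductase that detoxifies aldehydes such as those of aflatoxin, was at 22, 20.5 and 17.3 CPM in Control and at 167, 167 and 156 CPM in HFD+SAMC (rise of 3.04 ± 0.31, 8.2-fold, adjusted p = 0.00185). It was at 32.9 to 43.9 CPM in HFD and 186 to 526 CPM in Control+SAMC. Gstm1, a mu-class transferase, rose from 355, 309 and 363 CPM to 1070, 1730 and 1080 CPM (1.92 ± 0.25, adjusted p = 0.00817), and Abcc3, a pump that exports conjugates to the blood, from 4.13, 5.24 and 3.34 CPM to 36.3, 58.8 and 28.6 CPM (3.28 ± 0.40, adjusted p = 0.00817). Without Control replicate 3 their adjusted p was 0.0708 and 0.0794. Gsta, Gstm and Ugt1a genes have close copies, so their separate values are uncertain as well.

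Of 32 Nrf2 targets tested, 4 rose (Abcc3, Akr7a3, Gstm1 and Gstp1) and none fell. At unadjusted p under 0.05, 11 were higher and 1 lower, and the median log2 difference was 0.31, beside -0.002 over all genes. Akr1b8, an aldo-keto reductase named here after its values were seen, was at 1.66, 0.856 and 1.3 CPM in Control and 51.2, 23.8 and 36.7 CPM in HFD+SAMC without passing the test (4.86 ± 0.81, adjusted p = 0.055). HFD libraries had 1.38 to 2.29 CPM of it. Of 20 glutathione S-transferases 2 rose, 8 were higher and 2 lower at unadjusted p under 0.05, and the median was 0.38 (0.23 without Control replicate 1). Gsta3 and Gstm2 did not pass the test (1.74 ± 0.31 with adjusted p = 0.0536, and 1.11 ± 0.23 with adjusted p = 0.074). Of 25 glucuronosyltransferases and sulfotransferases none passed, with Ugt1a6 at 9.98 to 12.9 CPM in Control and 26.7 to 67.5 CPM in HFD+SAMC (2.05 ± 0.39, adjusted p = 0.067). The mean level of the Nrf2 list per library was -0.07 to 0.08 in Control, 0.61 to 0.87 in HFD+SAMC, 0.12 to 0.32 in HFD and 0.87 to 1.38 in Control+SAMC.

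**Figure D2:**
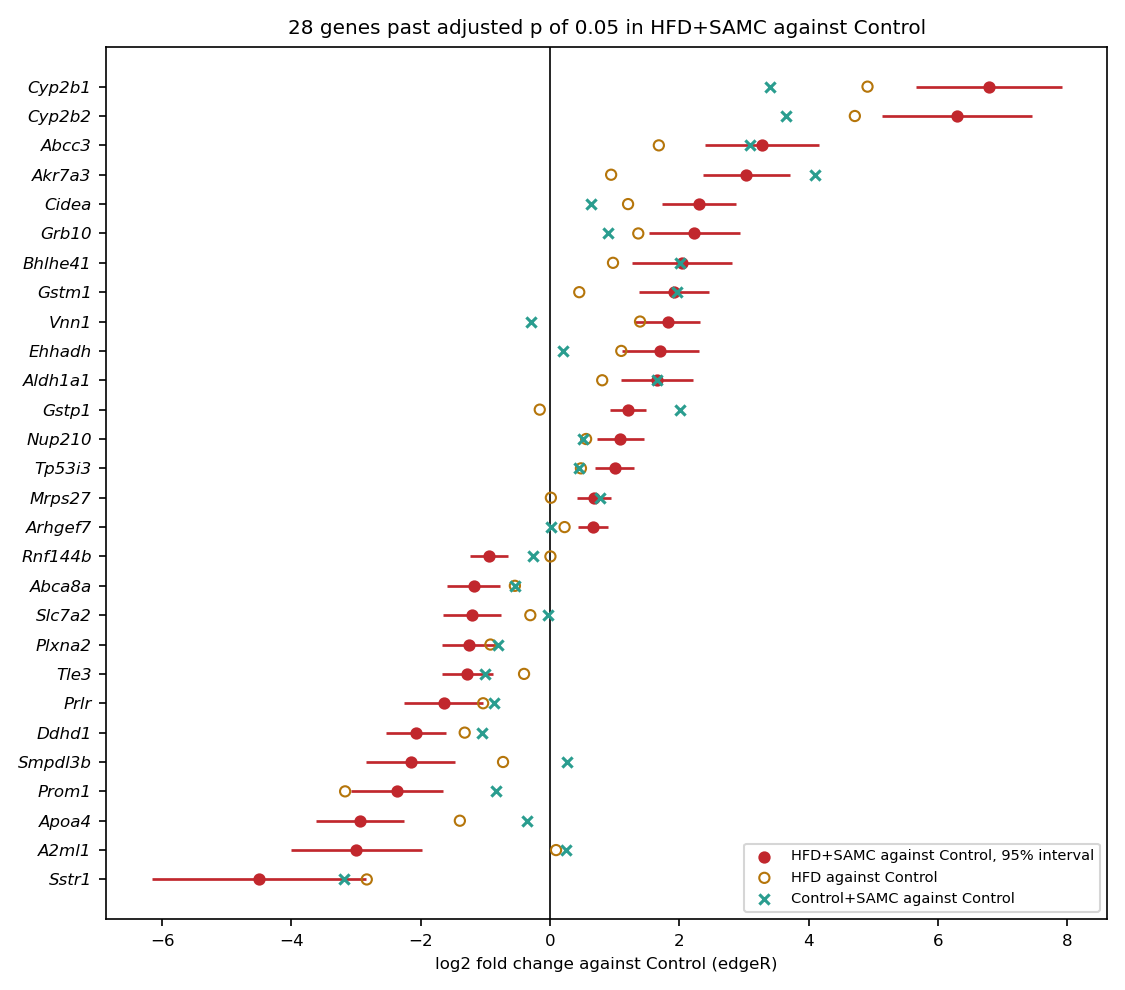
Log2 fold change against Control of the 28 genes past the threshold: filled circles with 95% intervals are HFD+SAMC, open circles HFD and crosses Control+SAMC, all measured against the same 3 Control libraries. Cyp2b1 and Cyp2b2 lie farthest right (6.79 and 6.30) and Sstr1 farthest left (-4.51).

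Genes of fat oxidation gave a mixed picture. Vnn1, a pantetheinase and a marked PPARa target, was at 49.4, 35.8 and 30.2 CPM in Control and at 189, 104 and 114 CPM in HFD+SAMC (rise of 1.82 ± 0.23, adjusted p = 0.00751; 0.0708 without Control replicate 3). Ehhadh, the peroxisomal bifunctional enzyme, rose from 154, 223 and 190 CPM to 918, 458 and 476 CPM (1.71 ± 0.27, adjusted p = 0.0309; 0.19 without Control replicate 3). Both were also high in HFD, Vnn1 at 93.3 to 108 CPM and Ehhadh at 318 to 457 CPM, and near Control in Control+SAMC. Neither differed from HFD by the test (0.43 with adjusted p = 0.526, and 0.61 with adjusted p = 0.447). The fatty acid hydroxylases Cyp4a1 and Cyp4a3, further PPARa targets, had the opposite sign: Cyp4a1 was at 362 to 600 CPM in Control and 99.2 to 222 CPM in HFD+SAMC (-1.50 ± 0.29, adjusted p = 0.0666), and Cyp4a3 at 929 to 1490 and 326 to 705 CPM (-1.40 ± 0.28, adjusted p = 0.067). Over the list of 45 oxidation and PPARa genes, 2 rose and none fell. At unadjusted p under 0.05, 7 were higher and 6 lower, beside 6.61% and 5.99% of all genes. The list's median was 0.06. Leaving out Control replicate 1 gave 0.13, and leaving out HFD+SAMC replicate 1 gave -0.06.

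Proteins that coat lipid droplets or carry lipid in blood included calls in each direction. Cidea, a droplet protein that fuses droplets and is low in normal liver, was at 9.71, 4.6 and 5.96 CPM in Control and at 28.7, 36.2 and 35.6 CPM in HFD+SAMC (rise of 2.31 ± 0.26, 4.95-fold, adjusted p = 0.0032). HFD libraries were at 13.1 to 18 CPM, between the groups and overlapping neither. Apoa4, an apolipoprotein of chylomicrons and high density lipoprotein, was at 787, 876 and 1010 CPM in Control and at 120, 142 and 87.2 CPM in HFD+SAMC, a fall to 0.13 of the Control level (-2.94 ± 0.31, adjusted p = 0.00205). It was at 256 to 403 CPM in HFD and 436 to 1020 CPM in Control+SAMC, so each HFD+SAMC library lay below every other library of the series. Apoc3, an inhibitor of lipoprotein lipase and a neighbour of Apoa4 in the table's coordinates, was at 1800 to 3270 CPM in Control and 1200 to 1260 CPM in HFD+SAMC (-1.10 ± 0.22, adjusted p = 0.067). Apoa1, of the same cluster and named after its values were seen, was at 2040 to 2690 and 906 to 1290 CPM (-1.08 ± 0.30, adjusted p = 0.174). G0s2, an inhibitor of the lipase ATGL, was at 257 to 300 and 96.7 to 116 CPM (-1.36 ± 0.27, adjusted p = 0.0709). Of 32 droplet and lipoprotein genes 1 rose and 1 fell, 2 were higher and 11 lower at unadjusted p under 0.05 against 5.99% of all genes, and the median was -0.23. With library totals alone that median was 0.05, so its sign depends on the scaling.

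Some enzymes of phospholipids and transporters fell. Ddhd1, a phospholipase of phosphatidic acid, was at 36.4, 43.7 and 36.1 CPM in Control and at 11.1, 7.87 and 8.65 CPM in HFD+SAMC (-2.07 ± 0.21, adjusted p = 0.00185). It was at 11.6 to 17.6 CPM in HFD and 16 to 23.5 CPM in Control+SAMC, and each of the 9 treated or fatty-diet libraries lay below the 3 Control libraries. Smpdl3b, a phosphodiesterase related to acid sphingomyelinase, fell from 1.77 to 2.23 CPM to 0.324 to 0.517 CPM (-2.15 ± 0.32, adjusted p = 0.0175; 0.0855 without HFD+SAMC replicate 2). Abca8a, a lipid transporter, was at 228 to 366 CPM in Control and 133 to 143 CPM in HFD+SAMC and fell by 1.18 ± 0.19 (adjusted p = 0.0297; 0.151 without Control replicate 3). Slc7a2, a carrier of cationic amino acids, was at 257 to 339 and 109 to 136 CPM and fell by 1.21 ± 0.21 (adjusted p = 0.0473; 0.176 without HFD+SAMC replicate 2).

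Lipogenic genes did not pass the edgeR test, and their estimates moved with Control replicate 2. With DESeq2, which called 455 genes in this comparison, Scd, Fasn and Thrsp were among the calls. Scd, the desaturase that makes monounsaturated fatty acids, was at 58.1, 268 and 168 CPM in Control and at 0.355, 0.736 and 2.58 CPM in HFD+SAMC (-7.07 ± 1.22, adjusted p = 0.063). Every Control library lay above every HFD+SAMC library, and HFD libraries were also low, at 0.664, 2.39 and 10.1 CPM. Fasn, the fatty acid synthase, was at 135, 1050 and 529 CPM in Control and at 160, 258 and 135 CPM in HFD+SAMC, with overlap (-1.63 ± 0.60, adjusted p = 0.296; -0.86 without Control replicate 2). Thrsp, a regulator of lipogenesis, was at 604 to 1280 and 270 to 326 CPM (-1.54 ± 0.29, adjusted p = 0.0561). Of 27 lipogenic genes none passed the test. At unadjusted p under 0.05, 12 were lower and 0 higher, beside 5.99% and 6.61% of all genes. The list's median was -0.68. Without Control replicate 2 the median was -0.14 and 7 were lower at that p. Per library the list was at -0.94, 0.99 and -0.05 in Control replicates 1, 2 and 3, relative to their mean, and at -0.96, -0.89 and -1.13 in HFD+SAMC, so Control replicate 1 lay within the range of the HFD+SAMC libraries.

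Cholesterol synthesis did not separate the groups. All 20 genes of the list had a negative estimate and 2 were lower at unadjusted p under 0.05, with a median of -0.72. That direction rested on Control replicate 2: without it the median was 0.28, with 13 positive and 7 negative estimates, and without Control replicate 1 it was -1.10. Cyp51, a demethylase of the sterol pathway, was at 212, 858 and 439 CPM in Control and 277, 340 and 229 CPM in HFD+SAMC (-0.84 ± 0.40, adjusted p = 0.42; -0.21 without Control replicate 2). In HFD the list lay lower than in any of the 6 libraries, at -1.29 to -2.12 relative to the Control mean, while HFD+SAMC was at -0.14 to -0.70 and Control+SAMC at 0.75 to 1.23. Of 20 genes for sterol uptake and its control, none passed, 6 were lower at unadjusted p under 0.05 and the median was -0.32, which was -0.17 without Control replicate 2 and -0.51 without Control replicate 1. With library totals alone the median of this list was -0.01, with 10 positive and 10 negative estimates. Insig1, which restrains SREBP, was at 81.4, 536 and 93.8 CPM in Control and 59.1, 77.6 and 52 CPM in HFD+SAMC (-1.91 ± 0.62, adjusted p = 0.248; -0.49 without Control replicate 2).

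**Figure D3:**
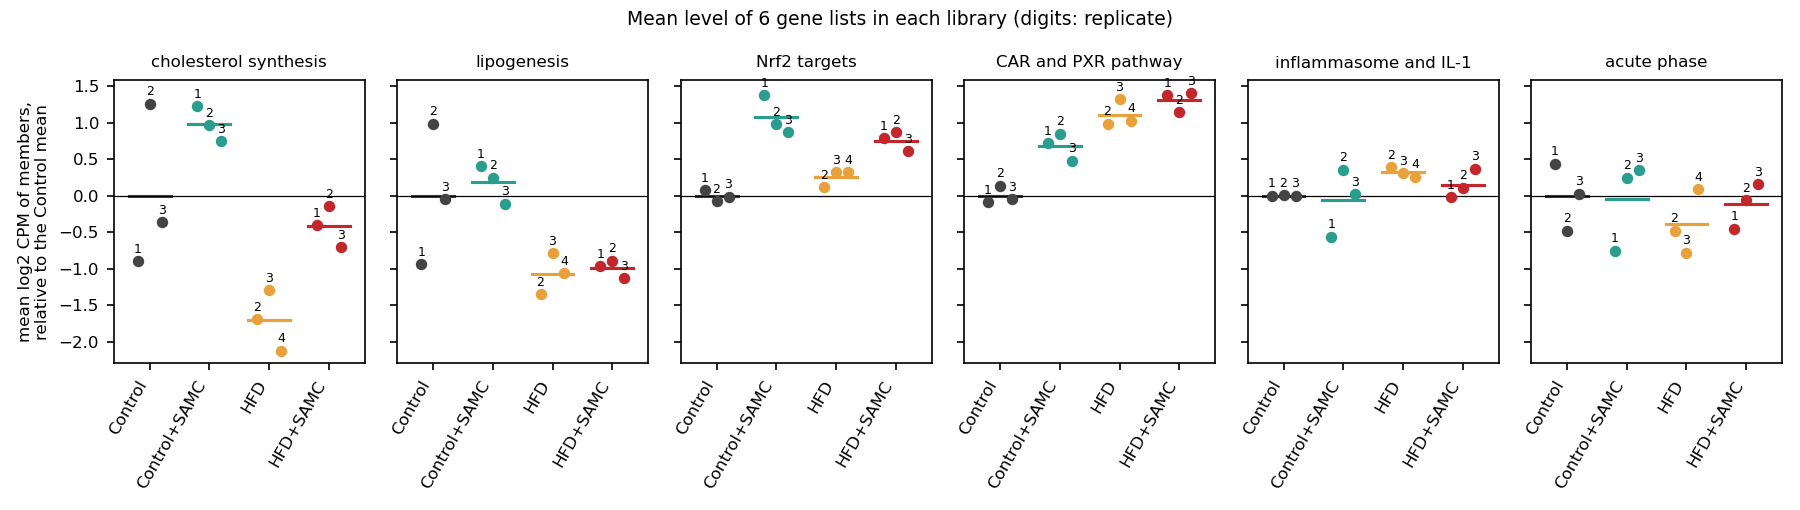
Mean log2 CPM of the members of 6 gene lists in each library, relative to the mean of the 3 Control libraries; digits are replicate numbers and bars are group means. The Nrf2 and CAR and PXR lists lie above Control in every HFD+SAMC library (0.61 to 0.87 and 1.15 to 1.41), while cholesterol synthesis and lipogenesis spread widely among the Control libraries (-0.90 to 1.26 and -0.94 to 0.99).

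Calls outside these pathways were of several kinds. Sstr1, a somatostatin receptor, was at 2.51, 6.9 and 5.22 CPM in Control and at 0.278, 0.204 and 0.155 CPM in HFD+SAMC (-4.51 ± 0.76, adjusted p = 0.0473; 0.195 without HFD+SAMC replicate 2). Its levels were also below Control in HFD (0.299 to 1.05 CPM) and in Control+SAMC (0.13 to 1.14 CPM). Neither of those groups passed the test against Control (adjusted p = 0.176 and 0.17). A2ml1, a protease inhibitor of the alpha-2-macroglobulin family, was at 25.6, 10.2 and 11.3 CPM in Control and at 1.14, 2.16 and 2.58 CPM in HFD+SAMC (-3.00 ± 0.46, adjusted p = 0.0324; 0.165 without HFD+SAMC replicate 2). It was at 9.25 to 21.5 CPM in HFD and 14.4 to 22.1 CPM in Control+SAMC, so the groups with diet or SAMC alone lay near Control. Its interaction of diet and SAMC was -3.34 with an adjusted p of 0.088. That contrast follows the sets of libraries with different gene length tables, so a difference between the sets cannot be told apart from it. Prlr, the prolactin receptor, was at 665, 1400 and 932 CPM and fell to 331, 269 and 362 CPM (-1.64 ± 0.28, adjusted p = 0.0473; 0.195 without HFD+SAMC replicate 2). Prom1, a membrane protein of cholangiocytes and progenitor cells, fell from 34.2, 64.9 and 47.8 CPM to 9.21, 11.5 and 7.8 CPM (-2.36 ± 0.33, adjusted p = 0.0161; 0.0952 without HFD+SAMC replicate 3), and was at 3.1 to 6.75 CPM in HFD, from which HFD+SAMC did not differ by the test (0.81, adjusted p = 0.402). Of the 10 cholangiocyte and progenitor markers tested, Prom1 included, 7 had positive and 3 negative estimates, 3 were higher and 1 lower at unadjusted p under 0.05, and the summed level was 501 to 932 CPM in Control and 780 to 1570 CPM in HFD+SAMC. The list's median was 0.56, and 0.29 without Control replicate 3 and 1.16 without Control replicate 1. The part of these cells in the fall of Prom1 was not tested.

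The remaining 9 of the 28 calls were 6 rises and 3 falls. Grb10, an adaptor that restrains insulin signalling, rose from 1.32 to 2.15 CPM to 6.33 to 9.78 CPM (2.23 ± 0.32, adjusted p = 0.0174; 0.144 without Control replicate 3). Bhlhe41, a clock repressor, rose from 0.673 to 1.49 CPM to 3.5 to 4.59 CPM (2.04 ± 0.36, adjusted p = 0.0495; 0.217 without Control replicate 3). It was the single member of 19 clock genes to pass. The nuclear pore protein Nup210 rose by 1.09, Tp53i3, a p53-induced quinone oxidoreductase, by 1.00, the mitochondrial ribosomal protein Mrps27 by 0.68 and Arhgef7, a guanine nucleotide exchange factor, by 0.66, with adjusted p of 0.0239, 0.0151, 0.0493 and 0.033. The corepressor Tle3 fell by 1.28, the semaphorin receptor Plxna2 by 1.25 and the ubiquitin ligase Rnf144b by 0.94, with adjusted p of 0.0161, 0.0239 and 0.0174. Without Control replicate 3 the adjusted p of these rises reached 0.152, 0.109, 0.217 and 0.217, and without HFD+SAMC replicate 2 that of these falls reached 0.0898, 0.122 and 0.122. Arhgef7 lies outside the naming rule and is given to complete the count.

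Set against the untreated fatty-diet liver, HFD+SAMC differed in 8 of the 15916 genes (0.0503%), of which 5 have names that are not provisional. This contrast equals the difference between HFD+SAMC against Control and HFD against Control, which share the Control libraries. Gstp1 (1.36, adjusted p = 0.00332) and Akr7a3 (2.09, adjusted p = 0.0311) were higher than in HFD as well as than in Control. Rnf144b, at 48.4 to 62 CPM in HFD+SAMC, was below HFD at 89.7 to 109 CPM (-0.95, adjusted p = 0.0311) and below Control at 96.6 to 106 CPM. For these 3 genes HFD lay near Control or on the same side of it, and HFD+SAMC lay away from each.

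For Tmem97 and Acnat2 the treated liver lay nearer to the normal one than the untreated fatty-diet liver did. Tmem97, a sterol-regulated membrane protein, was at 50, 91.1 and 64.7 CPM in Control, 19.8, 15.8 and 17.8 CPM in HFD and 45.1, 52.2 and 55 CPM in HFD+SAMC. HFD+SAMC was higher than HFD by 1.51 (adjusted p = 0.0191) and overlapped Control (-0.43 ± 0.19, 95% interval -0.85 to -0.02, adjusted p = 0.377). Acnat2, an acyltransferase that conjugates fatty acids to amino acids, was at 0.979 to 1.1 CPM in Control, 4.78 to 7.01 CPM in HFD and 1.13 to 2.07 CPM in HFD+SAMC, lower than HFD by the test (-2.02, adjusted p = 0.0311) and not past it against Control (0.56 ± 0.29, 95% interval -0.08 to 1.19, adjusted p = 0.457). The libraries of HFD+SAMC and HFD come from sets whose deposited RPKM used different gene length tables for 1 gene, whereas Control and HFD+SAMC share theirs. The count of 8 was 1 to 5 without any of HFD+SAMC replicates 1, 2 and 3, Control replicate 3, Control+SAMC replicate 3 and HFD replicates 2 and 3, was 14 without Control replicate 1 and 27 without Control replicate 2. The interaction of diet and SAMC passed in 23 genes (0.145%), a count that was 7 to 13 without any 1 library other than Control replicate 1 (19) and HFD replicate 4 (16). None of the 28 genes was among the 23. The interaction sets Control and HFD+SAMC against Control+SAMC and HFD, the same split as that of the gene length tables. An interaction and a difference between those sets thus cannot be told apart.

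**Figure D4:**
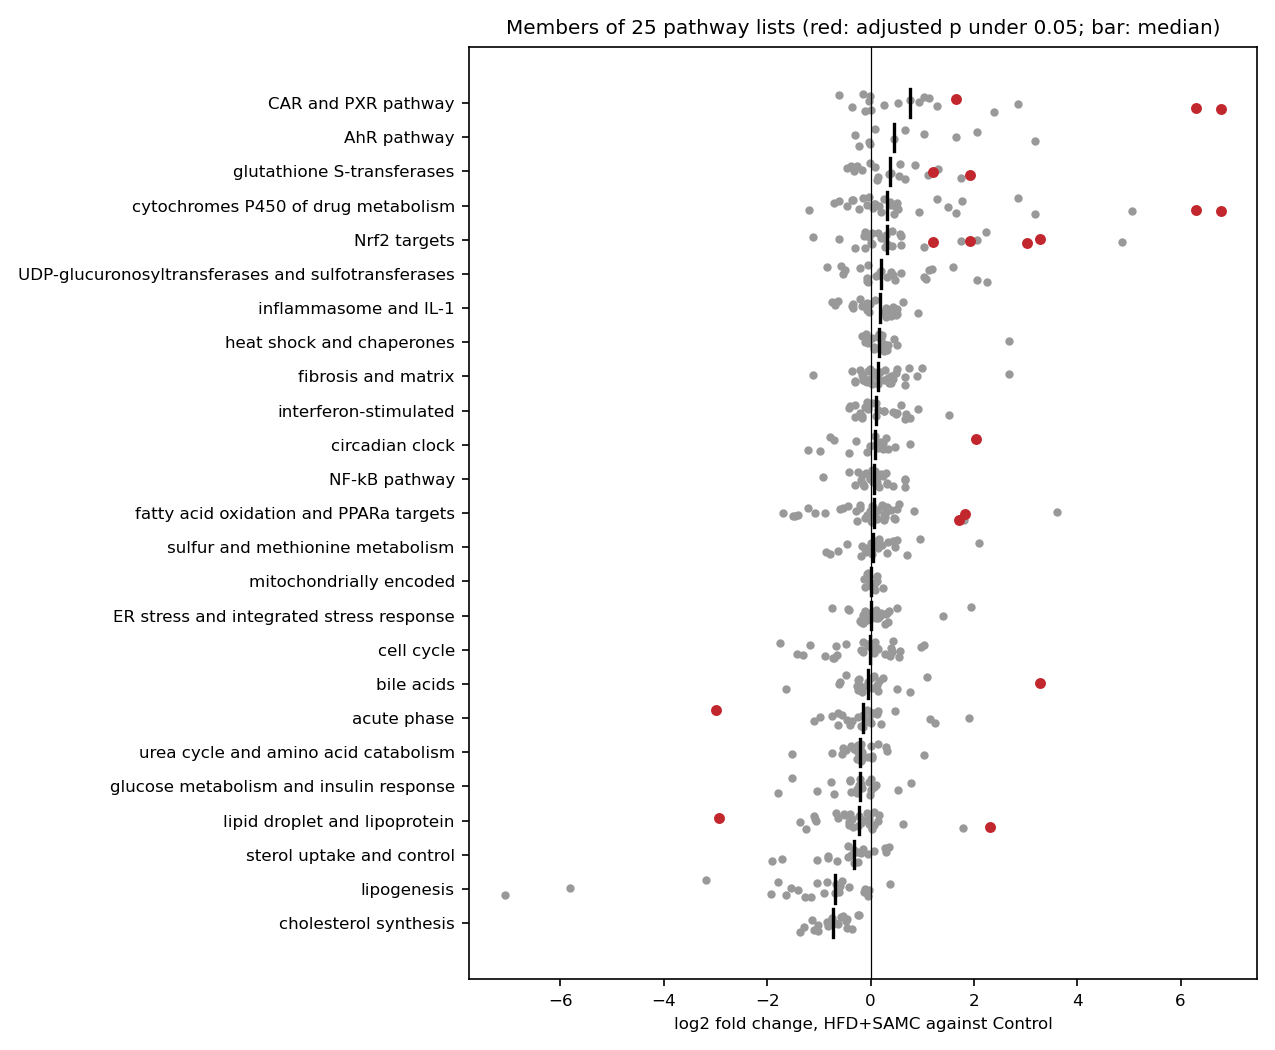
Log2 fold change, HFD+SAMC against Control, of every tested member of 25 pathway lists; each point is a gene, red points passed the threshold and black bars are list medians. Medians run from -0.72 (cholesterol synthesis) to 0.76 (CAR and PXR).

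The transcripts of the regulators named in the title of the series did not pass the test between the treated fatty-diet liver and the normal one. Transcript levels do not measure the amount or activity of the proteins. The receptor gene Ahr was at 21.8, 89 and 47.3 CPM in Control and 40.7, 55.7 and 38.9 CPM in HFD+SAMC (log2 difference -0.23, 95% interval -1.25 to 0.80, adjusted p = 0.89). Its target Cyp1a2 was at 729, 930 and 896 CPM and at 1190, 1120 and 1190 CPM, wholly above (0.46, -0.05 to 0.96, adjusted p = 0.442), and its target Cyp1a1 was at 0 to 0.667 and 0.91 to 3.62 CPM (3.18, 0.04 to 6.32, adjusted p = 0.392). Of 11 AhR pathway genes 3 were higher and 1 lower at unadjusted p under 0.05, beside 6.61% and 5.99% of all genes. Nfe2l2, which encodes Nrf2, was at 126 to 173 and 123 to 148 CPM (-0.12, -0.47 to 0.24, adjusted p = 0.824), and Keap1, named after its values were seen, at 54.5 to 71.2 and 43.6 to 56.1 CPM (-0.29, -0.65 to 0.06, adjusted p = 0.489). Intervals of Nfe2l2 and Keap1 lay within 2-fold. The Nrf2 targets Nqo1 (1.03, 0.27 to 1.78, adjusted p = 0.256) and Hmox1 (0.28, -0.84 to 1.41, adjusted p = 0.867) did not pass the test. With counts scaled by library totals the estimates of Ahr and Nfe2l2 turned positive, at 0.11 and 0.17, and without Control replicate 2 those of Ahr and Hmox1 turned to 0.38 and -0.13.

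The transcripts of the inflammatory regulators named in the title did not pass the test either. Nlrp3, the sensor of the inflammasome, was at 3.9, 3.28 and 3.23 CPM in Control, 3.76, 4.11 and 4.92 CPM in HFD+SAMC and 7.11, 8.26 and 3.67 CPM in HFD. Its log2 difference from Control was 0.30 (-0.29 to 0.88, adjusted p = 0.707), and from HFD -0.57 (adjusted p = 0.479). No library had a count of Nlrp6, whose total was 0. The NF-kB subunits Nfkb1 (0.17, -0.09 to 0.42, adjusted p = 0.594) and Rela (-0.12, -0.44 to 0.20, adjusted p = 0.797) and the inhibitor Nfkbia (-0.15, -0.68 to 0.39, adjusted p = 0.858) had intervals within 2-fold of Control. With library totals alone Rela and Nfkbia turned to 0.14 and 0.14. Of 26 inflammasome and interleukin-1 genes none passed, and the median was 0.18. At unadjusted p under 0.05, 3 were higher and 2 lower, beside 6.61% and 5.99% of all genes. Without HFD+SAMC replicate 3 the median was -0.01, with 2 higher and 3 lower at that p. Naip6, a sensor protein of the NLRC4 inflammasome, was at 0.857 to 1.35 and 1.81 to 2.66 CPM (0.92 ± 0.26, adjusted p = 0.177), and P2rx7, the ATP receptor that triggers NLRP3, at 10.1 to 14.7 and 7.33 to 8.37 CPM (-0.74 ± 0.23, adjusted p = 0.228). Of 28 NF-kB genes none passed. At unadjusted p under 0.05, 3 were higher and 0 lower, beside 6.61% and 5.99% of all genes. Among the 3 were Nfkb2 (0.67 ± 0.28, adjusted p = 0.348) and the feedback inhibitor Tnfaip3 (0.66 ± 0.30, adjusted p = 0.382). Without HFD+SAMC replicate 3 none of the 28 had that p, and Tnfaip3 was at 0.32.

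**Figure D5:**
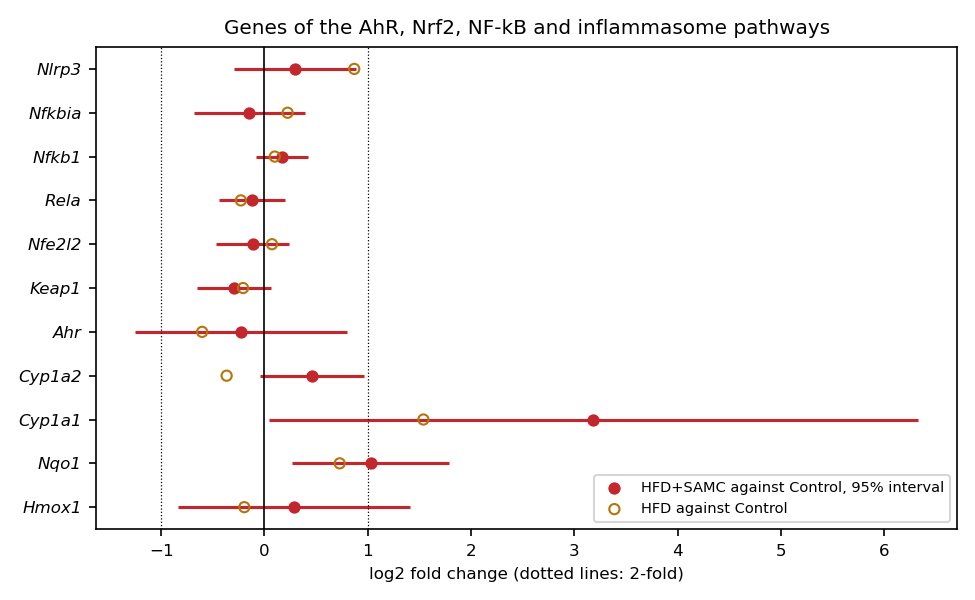
Log2 fold change against Control of genes of the AhR, Nrf2, NF-kB and inflammasome pathways; filled circles with 95% intervals are HFD+SAMC, open circles HFD, dotted lines mark 2-fold. Nfkb1 (-0.09 to 0.42) and Nfe2l2 (-0.47 to 0.24) lie between the dotted lines, while the interval of Cyp1a1 runs from 0.04 to 6.32.

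Markers of cell types were compared next. All 12 hepatocyte markers had a negative estimate, 6 were lower at unadjusted p under 0.05, none passed, and the median was -0.49. With library totals alone 4 of the 12 were positive and the median was -0.21. Hnf4a, the transcription factor that sets hepatocyte identity, named after its values were seen, was at 1050, 1030 and 1130 CPM in Control, 499, 649 and 530 CPM in HFD+SAMC, 874 to 960 CPM in HFD and 893 to 1240 CPM in Control+SAMC (-0.94 ± 0.17, adjusted p = 0.0536). Every HFD+SAMC library was below every other library for this gene. Alb was at 83300, 274000 and 181000 CPM in Control and 80000, 67300 and 96500 CPM in HFD+SAMC (-1.14 ± 0.38, adjusted p = 0.25; -0.71 without Control replicate 2). Of 11 pericentral hepatocyte markers 6 had positive and 5 negative estimates, with a median of 0.17 (0.004 without Control replicate 3, 0.52 without Control replicate 2), and of 10 periportal markers 1 was positive and 9 negative, with a median of -0.27 (-0.15 without HFD+SAMC replicate 3). None passed. Glul, the pericentral marker with the largest estimate, encodes glutamine synthetase and was at 272 to 453 and 641 to 828 CPM (1.03 ± 0.28, adjusted p = 0.172). Of 17 Kupffer cell and macrophage markers 12 had positive and 5 negative estimates, and none passed. At unadjusted p under 0.05, 3 were higher and 0 lower, beside 6.61% and 5.99% of all genes. Their median was 0.16, and -0.10 without Control replicate 1 and 0.31 without Control replicate 2. Cd68, named after its values were seen, was at 21 to 30.2 and 33.9 to 38.2 CPM (0.41 ± 0.18, adjusted p = 0.384). The sinusoidal endothelial lectin Clec4g, also named after its values were seen, was at 27.6 to 28.8 and 13.4 to 15.5 CPM (-0.93 ± 0.18, adjusted p = 0.062). Of the 13 endothelial markers tested, Clec4g included, 6 had positive and 7 negative estimates, with a median of -0.04. None passed, and 0 were higher and 3 lower at unadjusted p under 0.05. They summed to 607 to 742 CPM in Control and 564 to 616 CPM in HFD+SAMC. Whether these markers have a part in the other differences was not tested.

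The other pathway lists held almost no calls. None of 34 fibrosis, 24 glucose, 27 interferon, 28 endoplasmic reticulum stress, 23 heat shock, 30 cell cycle, 27 urea cycle and 26 sulfur metabolism genes passed the test, nor did any of 13 mitochondrially encoded genes. Of 27 acute phase genes 1 fell (A2ml1). At unadjusted p under 0.05, 6 were lower and 2 higher, beside 5.99% and 6.61% of all genes. The list's median was -0.14. That median turned to 0.08 without Control replicate 1 and to 0.11 with library totals. Of 23 bile acid genes 1 rose, Abcc3, which also exports bile acid conjugates. Hspb1, a small heat shock protein, was at 30.6, 15.1 and 7.89 CPM in Control and 84.7, 154 and 104 CPM in HFD+SAMC (2.68 ± 0.55, adjusted p = 0.092). HFD replicates 2, 3 and 4 had 39.7, 78 and 96.5 CPM of it, and Control+SAMC replicates 1, 2 and 3 had 63.7, 34.4 and 25.7 CPM. Its level in HFD+SAMC replicate 3, the library with muscle transcripts, lay between those of the other HFD+SAMC libraries. The part of muscle transcripts in its difference was not tested. Some lists share members, as Abcc3 shows, so their counts are not independent.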

How the data were processed

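Per the labels' protocols, ribosomal RNA was removed from liver RNA and paired reads of 150 bp were sequenced; the authors aligned them with HISAT2 and deposited a count of reads per gene made with HTSeq, after Trimmomatic 0.36 and FastQC, both named in the submitters' processing notes. Build, annotation release and strand setting: not given in the sources used here, so reads of overlapping or antisense genes may not be told apart. The authors also deposited an RPKM per gene and library, used only to compare levels between genes. RGD1562465 alone had 2 lengths behind its RPKM, 3377 bp in the 6 libraries compared here and 4432 bp in the remaining 6. The comparisons of HFD or Control+SAMC with Control or HFD+SAMC cross these sets.

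Genes kept by filterByExpr (15916 of 40154, with 99.96% of counts) were tested with edgeR 4.0.16 under R 4.3.3 (TMM scaling, robust quasi-likelihood, two-sided, 8 residual degrees of freedom). All 12 libraries entered 1 fit, since the other groups add to the estimate of the spread. The common biological coefficient of variation was 0.299. P-values were adjusted by Benjamini-Hochberg over all genes tested, with a threshold of 0.05. CPM uses TMM-scaled library sizes. Log2 fold changes have standard errors (SE) and 95% intervals from the same fit. Chi-square per degree of freedom between libraries of a group was 87.9 to 645, far above sampling noise.

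Comparisons, members, the 25 pathway and 16 marker lists were chosen with earlier results of these data known. Named genes were the 15 largest called changes each way (mean log2 CPM at least 0, no overlap of libraries, no provisional symbol), filled up to 10 each way by unadjusted p where fewer passed, up to 4 members of each pathway list by unadjusted p, genes of the series title with Cyp1a1, Cyp1a2, Nqo1 and Hmox1, and genes known from earlier results. Genes named outside this rule, with their values seen, were Arhgef7, Akr1b8, Hnf4a, Keap1, Apoa1, Clec4g, Cd68, Alb, Fga and Acta1. Same-numbered Control and HFD+SAMC libraries did not deviate together (correlations -0.061, 0.056 and 0.027), so numbers were not taken as pairs. The fitting code was tested on simulated data. Alternatives were RLE scaling, library totals, no filter, a replicate block, the 6 libraries alone, DESeq2 1.42.0 and leaving out each library. Promoters were matched by Entrez gene identifier, and aligned by Needleman-Wunsch.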

Additional observations from a re-analysis of the deposited data

Results flagged for a closer look

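Hsp90aa1, a cytosolic chaperone, had SAMC estimates of opposite sign on the diets. On the high fat diet SAMC went with a log2 difference of -1.19 (HFD+SAMC at 5.71, 5.11 and 5.99 CPM, HFD at 11.8, 13.4 and 13.2 CPM), and on the normal diet with 1.28 (Control+SAMC at 12.7, 7.02 and 8.85 CPM, Control at 5.2, 3.69 and 2.85 CPM). The interaction was -2.47 ± 0.34 (SE; adjusted p = 0.0165, edgeR). Neither SAMC difference passed on its own (adjusted p = 0.132 on the high fat diet and 0.0859 on the normal diet). HFD against Control did pass (1.71, adjusted p = 0.0259). Against Control, HFD+SAMC differed by 0.52 ± 0.24 (adjusted p = 0.41), with overlapping libraries. Hsp90aa1 has close copies in the genome, so its counts are uncertain. Control and HFD+SAMC share a gene length for RGD1562465 behind their RPKM that Control+SAMC and HFD do not. The interaction sets the former groups against the latter, so it cannot be told apart from a difference between these sets.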

How the results depend on the processing

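Scaling and tool changed the counts of calls, and no call among the 28 changed direction. DESeq2 also called genes that the main fit did not, such as Scd, Fasn, Thrsp, Hnf4a, Alb, Apoa1 and Cyp4a1. HFD+SAMC against Control gave 180 genes with library totals (166 higher, 14 lower), 61 with no filter (33 higher, 28 lower) and 455 with DESeq2 (227 higher, 228 lower, including all 28); RLE scaling gave 26 and the 6 libraries alone 30, of which 15 were among the 28. With the replicate block, which rests on numbers that do not pair the samples, 28 genes passed, of which 21 were the same; the block gave 6 genes in Control+SAMC against Control (19 without it) and 9 for the interaction of diet and SAMC (23 without it). HFD+SAMC against HFD gave 19 with no filter and 249 with DESeq2; HFD against Control 23, 129 with library totals and 315 with DESeq2; Control+SAMC against Control 219 and the interaction 128 with DESeq2. Leaving out each library in turn gave 7 to 53 genes for HFD+SAMC against Control (5 to 25 higher, 2 to 30 lower), 1 to 27 against HFD, 4 to 53 for HFD against Control, 3 to 23 for Control+SAMC against Control, 7 to 19 for the interaction, 8526 to 9437 genes within 2-fold, and 0.212 to 0.535 for the excess of distance. Without Control replicate 2 and HFD+SAMC replicate 3 together the counts were 0 for HFD+SAMC against Control (0 higher, 0 lower), 7 for HFD against Control, 4 for Control+SAMC against Control and 6 for the interaction. Uncalled estimates turned sign as follows: with library totals Ahr 0.11, Nfe2l2 0.169, Rela 0.141, Nfkbia 0.143 and Fga 0.069; with 1 library left out Ahr ranged from -0.608 to 0.377, Nfkbia from -0.338 to 0.047 and Hmox1 from -0.129 to 0.678, each crossing 0 without Control replicate 2, and Fga from -0.576 to 0.352, crossing 0 without Control replicate 1 or HFD+SAMC replicate 1; and with both libraries left out Ahr 0.474 and Hmox1 -0.341. The causes were not tested. With 3 libraries a group, the median SE over genes was 0.249 on the log2 scale, and changes near that size could not be told from the spread. Changes several times the SE could also miss the adjusted threshold, as Gstm2 did (1.11 ± 0.23, adjusted p = 0.074, edgeR).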
